A study of Coprinopsis cinerea AmutBmut pab1-1 with 201 samples.

Results

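The genes described here lie near the ends of 13 large scaffolds of the inky cap mushroom Coprinopsis cinerea. A counted gene was an end gene when its transcript started within 100 kb of the first annotated base of scaffolds 1 to 13, or ended within 100 kb of the last one. This position, and no measured value, chose 796 end genes, which were 5.85% of the 13617 counted genes. They were set beside 9117 interior genes that lay more than 500 kb from both ends, and 3582 genes lay in between. Each of the 26 scaffold ends held between 15 and 43 end genes, with a median of 31.5. Distances count from the outermost annotated base, because the scaffold lengths and telomere positions were not given in the sources used here. The gene IDs are those of the CopciAB V2 annotation, and none of them matched the 13657 genes of the reference table, so no gene names or products are given. Positions beside a gene are its first and last annotated base in that annotation.

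In fungi, the chromosome ends next to the telomeres often evolve faster than the rest of the chromosome. They tend to hold repeated sequence and members of gene families with close copies, and in well-studied yeasts and filamentous fungi silencing chromatin spreads inward from the telomere. Genes of secondary metabolism and other genes used only under particular conditions are known to gather in such regions in several moulds.

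RNA was measured in strain AmutBmut pab1-1, whose mutations in both mating type factors let a single strain fruit without a partner, and every group shared this genotype. The 67 groups had 3 libraries each, and the labels do not say whether these were separate cultures. The p-values therefore reflect only how much these libraries varied, and that variation may be technical. The libraries were made with QuantSeq, which sequences the 3′ end of each mRNA once, so levels in CPM, counts scaled to the library total, can be compared between genes without a correction for length. Total counts ranged from 213137 to 26100989 per library with a median of 9984304, and 5 libraries held fewer than 2000000, among them all 3 of the group in which Coprinopsis and the mould Trichoderma had grown over each other for 60 h, called the 60 h Trichoderma co-culture below.

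Groups used for comparisons were as follows. Germinating oidia, the asexual spores, at 18 h were set against oidia at 0 h, and germinating basidiospores, the sexual spores, at 12 h against basidiospores at 0 h. Mycelium grown in the dark for 132 h was compared with mycelium at 12 h. Aerial mycelium was compared with mycelium attached to the medium after 156 h in the dark. Each of the 2 kinds after 2 h of light was set against its own dark samples, labelled as just before the light. Those were taken earlier, so light and the time passed cannot be told apart. Hyphal knots, the first aggregates of a fruiting body, were set against attached mycelium, both 24 h after light, and primordia after 24 h of a light and dark cycle against those knots. Mycelium starved for 24 h on water agar was compared with dark mycelium at 60 h, and hyphal knots on 1% water agar with samples labelled knots minus 30 h, read here as 30 h before knots. Sclerotia, which are resting bodies, grew for 4 weeks, and their label states that slight contamination with mycelium is possible. Sclerotia, mycelium after 2 h at 47 °C and mycelium after 30 min at -20 °C were each set against dark mycelium at 132 h. Cold at 4 °C for 4 h and cutting with a knife followed by 3 h were set against dark mycelium at 84 h, and contact with Trichoderma against dark mycelium at 60 h. In liquid, 1 mM hydrogen peroxide for 3 h, 10% sorbitol for 2 h and 1% congo red for 3 h shared 1 control. Hypoxia for 24 h had a control of its own, and 2 mM copper sulphate for 6 h had another. The heated and the frozen mycelium were labelled 6 days old. The levels over all 67 groups also use the other times of these series and groups that enter no comparison here. Among these were 2 mM cobalt chloride on 7-day-old cultures, given 2 h of light and 22 h of darkness, and its control. Plates for carbon dioxide were sealed after inoculation and kept for 6 days in the dark at 28 °C. Drought and liquid culture for 3 h at pH 4 or pH 9 also belonged here. The others were 200 mM calcium for 24 h and 0.5 µg/ml voriconazole for 48 h, which share the control of copper, and the 60 h Trichoderma co-culture. Comparisons that share a control are not independent of each other.

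End genes were low. The median of their mean levels over the 67 groups was 2.94 CPM, against 17.7 CPM for interior genes. On the log2 CPM scale, averaged over all groups, the median was 0.68 for end genes and 3.79 for interior genes. The difference of -3.11 on this log2 scale corresponds to a median that was 8.62-fold higher in the interior. This scale averages logs and adds a prior count of 2. The fold is therefore not the ratio of the CPM medians above, and it changes with the prior count. The spread among end genes was wide, with quartiles at -1.62 and 3.44, against 1.42 and 5.25 for interior genes. High expression did occur, since 61 end genes (7.66%) averaged 100 CPM or more, compared with 1095 interior genes (12.0%). Of the end genes, 125 (15.7%) never reached a group mean of 1 CPM, against 422 interior genes (4.63%). This count depended on the libraries of the 60 h Trichoderma co-culture, in which a single count is worth between 1.86 and 4.35 CPM. Without them 20.6% of end genes and 6.28% of interior genes never reached 1 CPM, and 39 end genes passed that level nowhere else.

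The low levels extended past the limit of 100 kb. Within 20 kb of the end the median log2 CPM was -0.20 and 22.9% of 144 genes never reached 1 CPM. It was 1.20 at 20 to 40 kb, 0.86 at 40 to 60 kb, 1.26 at 60 to 80 kb and 0.68 at 80 to 100 kb. Farther in it was 0.88 at 100 to 200 kb, 2.01 at 200 to 300 kb and 2.38 at 300 to 500 kb. The outermost 20 kb was therefore the lowest of these bins, and no bin short of 200 kb had a median above 1.26. Just inside the limit, 81 genes at 90 to 100 kb had a median of 0.62, and just outside it, 87 genes at 100 to 110 kb had one of 0.28.

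**Figure D1:**
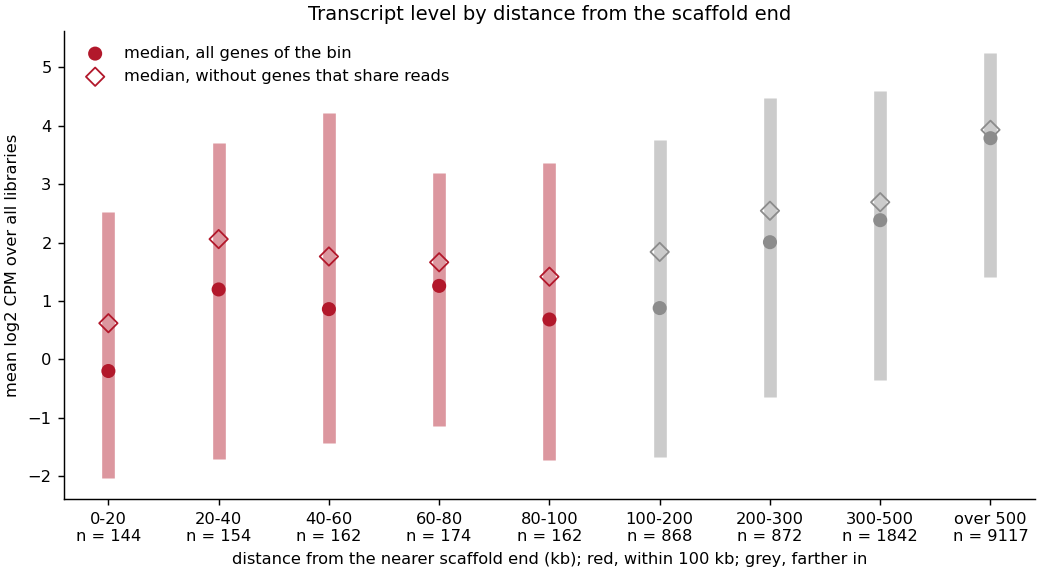
Mean log2 CPM over all libraries (vertical axis) for genes grouped by distance from the nearer scaffold end in kb (horizontal axis). Filled circles are medians, bars run from the lower to the upper quartile, and open diamonds are medians without genes that share reads. The median is -0.20 in the outermost 20 kb and 3.79 beyond 500 kb.

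Every one of the 26 ends had a median below the interior median of 3.79. The lowest were the first end of scaffold 1, at -2.12 with 15 genes, its last end, at -2.09 with 20 genes, and the first end of scaffold 11, at -2.05 with 20 genes. At each of these ends 40% of the genes never reached 1 CPM. The highest were the last ends of scaffold 13, at 3.63 with 25 genes, and of scaffold 9, at 3.07 with 28 genes. Set against the interior of its own scaffold, the combined median of the end genes was lower on all 13 scaffolds, with log2 differences from -6.44 on scaffold 1 to -1.14 on scaffold 9. Scaffold 13 is short and has only 24 interior genes.

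**Figure D2:**
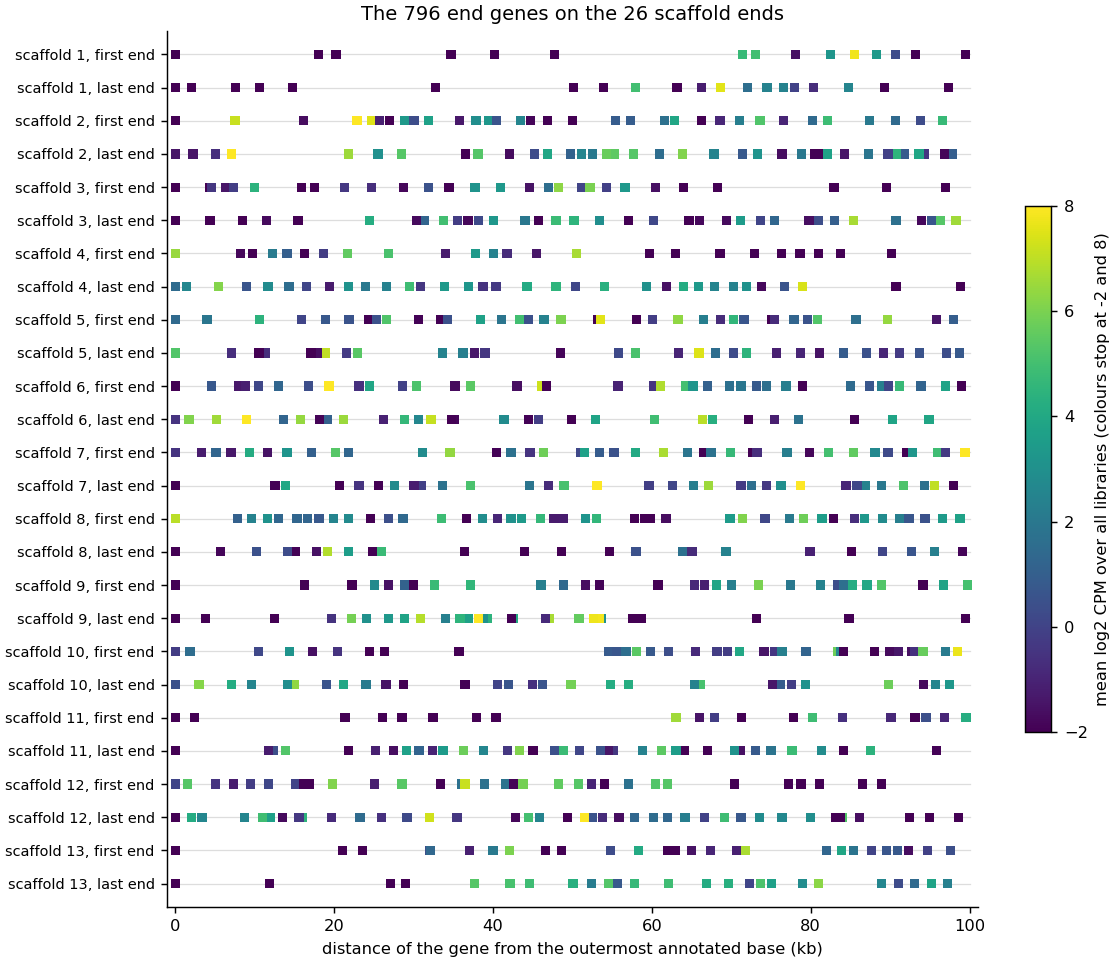
Each square is 1 end gene, placed by its distance in kb from the outermost annotated base of its scaffold end (horizontal axis) and coloured by its mean log2 CPM. Dark squares prevail at both ends of scaffold 1 and the first end of scaffold 11, while single genes of high level stand among low ones at most other ends.

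The outermost counted gene had low counts at many ends. At 12 of the 26 ends it never reached a group mean of 1 CPM, and at 4 more it did so only in the 60 h Trichoderma co-culture. Reads were shared with other places in the genome, as defined below, for 11 of the 12 and for 3 of the 4, so that their own level is uncertain. Of the 12, CopciAB_1001251.T0 (scaffold 6, 5617 to 6051) on scaffold 6 and CopciAB_1001667.T0 (scaffold 7, 2750231 to 2751208) on scaffold 7 had no rounded count in any library. A mean of 10 CPM or more was found at 3 ends. CopciAB_503378.T0 (scaffold 8, 7595 to 14961), outermost on the first end of scaffold 8, averaged 132 CPM. It stayed between 49.8 CPM under calcium and 248 CPM after cutting. Of its counts 82.6% were not whole numbers, read here as including reads shared with other places in the genome. CopciAB_431179.T0 (scaffold 4, 20728 to 27040), at the first end of scaffold 4, averaged 93.7 CPM, and its highest group was the sclerotia, with 173, 214 and 122 CPM. CopciAB_483192.T0 (scaffold 5, 3427097 to 3432931), at the last end of scaffold 5, averaged 47.0 CPM and was highest in basidiospores at 8 h, with 241, 198 and 173 CPM. All of these 3 genes passed 10 CPM in each of the 67 groups.

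Several properties of the annotation moved with position. Reads were taken as shared with other loci where counts were not whole in at least 50% of the libraries with a count. This held for 156 end genes (19.6%) and for 8.69% of interior genes. A 3′ untranslated region was annotated for 81.0% of end genes and 91.7% of interior genes, and a 3′ count depends on a correct transcript end. Fewer end genes overlapped another counted gene, 17.8% against 33.8%. The median number of exons was 4 for end genes and 5 for interior genes. The share transcribed toward the nearer end was 49.4%.

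The difference was present within most of these classes. Among genes with an annotated 3′ untranslated region, the median log2 CPM was 1.69 for 645 end genes and 4.03 for 8364 interior genes. Without one, the medians were -2.25 for 151 end genes and -2.15 for 753 interior genes, both close to the level of no counts. Where reads were not shared, 640 end genes had a median of 1.47, compared with 3.93 for interior genes, and 6.72% of these end genes against 2.03% of interior genes never reached 1 CPM. Genes of 1 exon had medians of -1.88 at ends and -0.37 in the interior, and genes of 6 or more exons 2.03 and 4.27. Direction made little difference, with 0.76 for the end genes transcribed toward the nearer end and 0.53 for those transcribed away from it. The part of read sharing and of unannotated transcript ends in the low levels was not tested.

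End genes were also expressed in fewer groups. The median end gene reached 1 CPM in 47 of 67 groups, and the median interior gene in all 67. Every group was reached by 182 end genes (22.9%), against 5696 interior genes (62.5%). The specificity index tau runs from 0 for an even level over all groups to 1 for expression in a single group. Among genes that reached 5 CPM in some group, its median was 0.51 for 556 end genes and 0.32 for 8068 interior genes. Narrow expression, with 10 CPM reached in at least 1 and at most 3 groups, was found for 119 of the 485 end genes that reached 10 CPM (24.5%) and for 874 of 7604 such interior genes. Of these 119, 28 had their highest level in oidia at 0 h, 14 in basidiospores at 0 h, 14 in the 60 h Trichoderma co-culture, 11 after heat shock and 8 in sclerotia. As shares, these were 23.5% of narrow end genes and 27.2% of narrow interior genes for oidia at 0 h, 11.8% and 19.8% for basidiospores at 0 h, and 9.24% and 14.99% for heat shock. Ends had the larger share for the co-culture, with 11.8% and 7.21%, and for sclerotia, with 6.72% and 2.06%. Without the co-culture libraries the median tau was 0.48 for end genes and 0.31 for interior genes. Both minimum levels apply to a gene's highest group, so a low gene passes only through the groups in which it is high. The number of groups reached, tau and narrow expression all depend on level. They were not compared at matched level, and the part of the lower level of end genes in them was not tested.

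Narrow expression is shown here by the 5 end genes of highest tau among those that reached 50 CPM in some group. Several genes below 50 CPM had a higher tau. Among them was CopciAB_504252.T0, the outermost gene at the first end of scaffold 1, which shares reads with other loci. Its tau was 0.996, and its group mean in the 60 h Trichoderma co-culture was 33.0 CPM, from 78.4, 11.5 and 9.30 CPM. A single count there is worth 1.86 to 4.35 CPM, and this mean rests mostly on 1 library. CopciAB_543686.T0 (scaffold 10, 100378 to 101369) had 41.7, 73.5 and 78.9 CPM in oidia at 0 h, and its next group, oidia at 18 h, averaged 3.58 CPM. CopciAB_442161.T0 (scaffold 11, 90838 to 92706) had 1080, 1030 and 699.6 CPM in basidiospores at 0 h, 207 CPM on average at 4 h and 44.9 CPM at 8 h. CopciAB_461172.T0 (scaffold 2, 3978895 to 3979805), only 5095 bp from the last end of scaffold 2, had 198, 299 and 283 CPM after heat shock and at most 4.26 CPM on average in any other group. CopciAB_456998.T0 (scaffold 13, 67362 to 69746) averaged 143 CPM in oidia at 0 h and 104 CPM in basidiospores at 0 h. CopciAB_1000559.T0 (scaffold 3, 23017 to 26170) peaked under copper, where a single library held 1998 CPM and the other 2 held 38.6 and 41.4 CPM.

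In every library the end genes' median was below that of the interior genes, with differences from -4.75 to -1.54 on the log2 scale. Group means of this difference averaged -3.07 with an SD of 0.45 over the 67 groups, and the pooled SD within groups was 0.15. Basidiospores had the largest differences. The difference was -4.23 ± 0.28 before germination, -4.62 ± 0.17 after 4 h, -4.36 ± 0.27 after 8 h and -4.53 ± 0.09 after 12 h (SD, n = 3 each). Oidia at 18 h followed with -3.82 ± 0.08, against -3.25 ± 0.09 at 0 h, and primordia at 24 h had -3.57 ± 0.08. The smallest differences were -1.92 ± 0.66 in the 60 h Trichoderma co-culture, where total counts were 213137 to 960658, and -2.44 ± 0.09 in attached mycelium 18 h after light. Starved mycelium at 24 h, with -2.64 ± 0.08, and the water agar series were also at this end of the range.

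**Figure D3:**
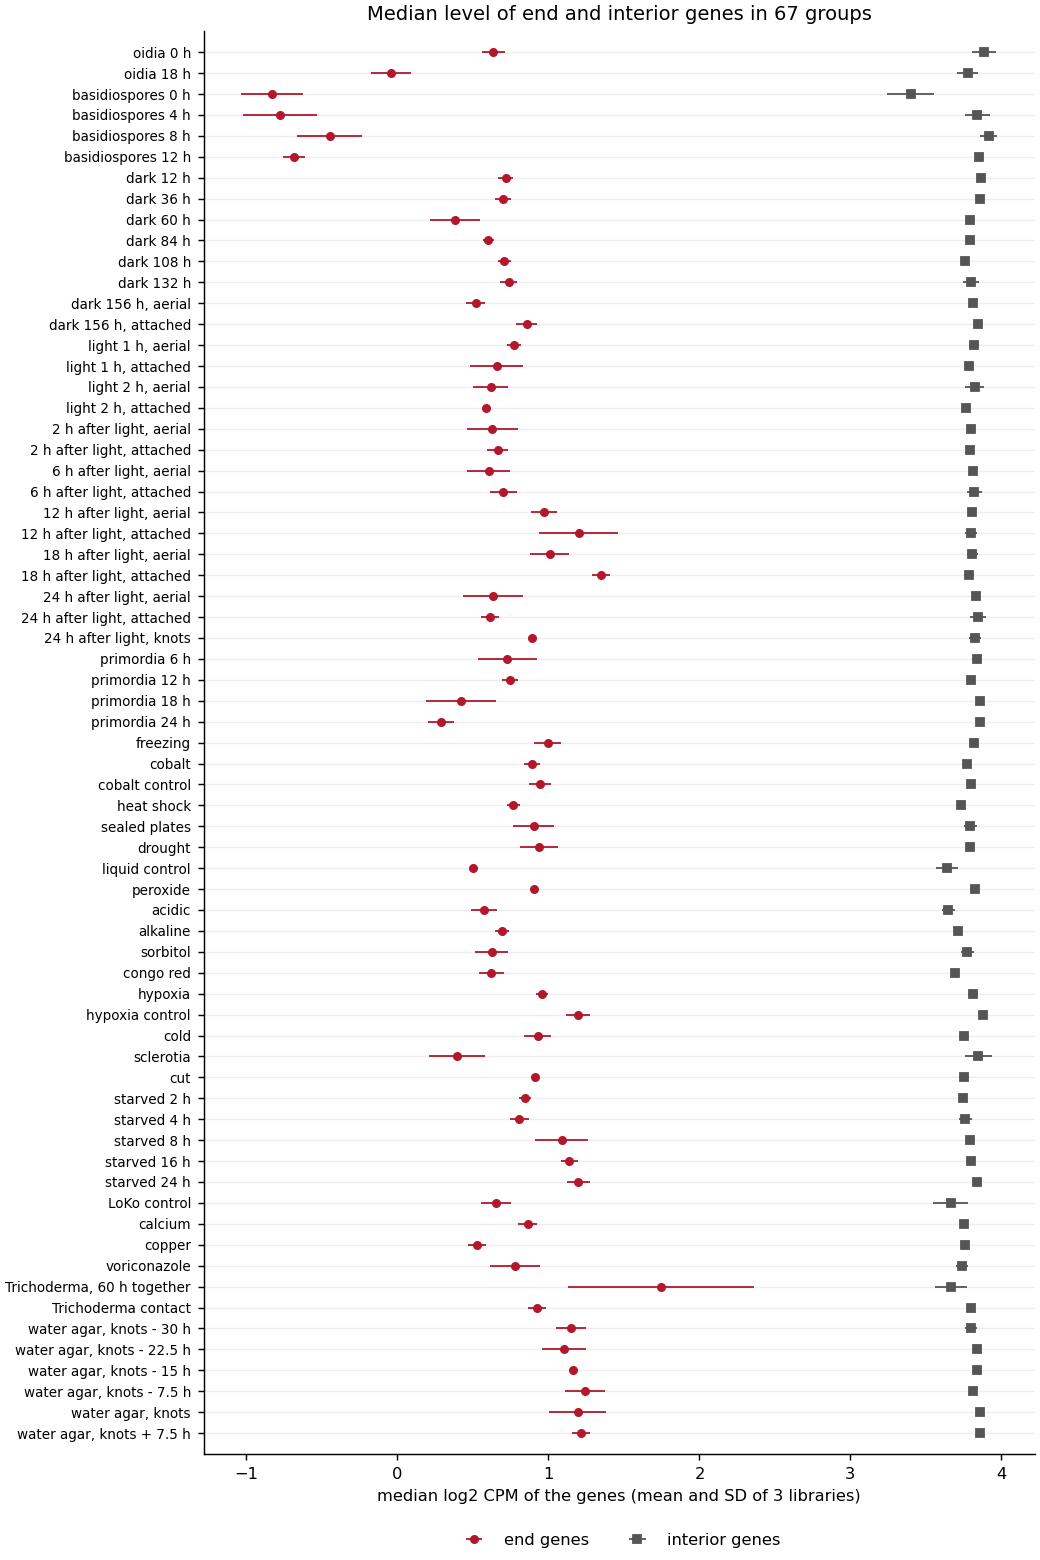
Median log2 CPM of the end genes (red circles) and the 9117 interior genes (grey squares) in each of the 67 groups; points are means of 3 libraries and bars are SD. Interior medians lie between 3.40 and 3.91, while end gene medians fall below 0 in the 4 basidiospore groups and in oidia at 18 h.

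The share of all counts that came from end genes was between 1.42% in basidiospores at 12 h and 3.89% ± 0.45 in hypoxia, with a median of 2.43% over groups. Without the 5 end genes of highest mean level, the share in hypoxia was 1.81% ± 0.08, and the highest was 2.75% ± 0.03 in primordia at 24 h. A few genes carried much of it, since the 5 with the highest mean level held 20.7% of the summed mean CPM of end genes. CopciAB_559348.T0 (scaffold 2, 25324 to 26192), 24663 bp from the first end of scaffold 2, averaged 1654 CPM. It had 13006, 22297 and 19370.5 CPM in hypoxia, and on average 12533 CPM in the control of the cobalt treatment and 0.184 CPM in basidiospores at 8 h. CopciAB_559260.T0 (scaffold 2, 23538 to 24327), which lies near it at 22877 bp, averaged 621 CPM and was highest in aerial mycelium 24 h after light, with 3247, 3100.2 and 2368 CPM. CopciAB_10026260.T0 (scaffold 7, 111662 to 112124), 99417 bp from the first end of scaffold 7, averaged 1340.3 CPM, and its highest group, the control for copper, rested on 1 library with 18092 CPM beside 4668 and 4521 CPM. CopciAB_375404.T0 (scaffold 6, 2806441 to 2809037), 8956 bp from the last end of scaffold 6, averaged 894 CPM and was highest after 8 h of starvation, with 2890, 4435 and 2558 CPM. CopciAB_491298.T0 (scaffold 12, 2132873 to 2134335) averaged 618 CPM and peaked in hyphal knots 24 h after light at 5058, 3668 and 7273 CPM. In all 5 the lowest group was a basidiospore group.

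Differences between groups were tested over all genes with edgeR's quasi-likelihood test, and called genes had both an adjusted p under 0.05, by Benjamini-Hochberg over all tested genes, and at least a 2-fold difference. In bulk samples, fewer cells of a type and less RNA per cell cannot be told apart. Between 408 and 563 of the 796 end genes passed the filter on low counts, depending on the comparison, which is 51.3% to 70.7% of them, compared with 81.4% to 89.8% of interior genes. Those that passed had to be expressed somewhere, so their shares do not describe all end genes. For each comparison the end gene with the highest and the one with the lowest fold change are given among called genes that reached a mean of 10 CPM in the higher group and whose libraries did not overlap. Fold changes are log2 ± SE, and p-values are the adjusted ones of that test. Since the choice demanded libraries that do not overlap, the separation of the groups in these genes is no finding. Where a group had 1 to 3 counts in all, the ratio of scaled counts is given with a 95% interval, and where it had none, a bound against a floor of 3 counts over the group, both for counting error only. Leaving out a library of a group with no count lowers such a bound by construction.

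In spore germination, large parts of the transcriptome changed. Of 428 tested end genes, 112 had risen and 149 had fallen in oidia by 18 h, which is 61.0%, where 53.9% of all tested genes (26.6% higher, 27.4% lower) and 51.8% of interior genes were called. CopciAB_176106.T0 (scaffold 1, 86494 to 89231) had 604, 712 and 651 CPM at 18 h, against 7.63, 4.52 and 2.59 CPM at 0 h (7.21 ± 0.44, adjusted p = 1.18e-08). CopciAB_200136.T0 (scaffold 8, 22913 to 23379), which shares reads with other loci, had 0, 0.253 and 0.169 CPM at 18 h and 18.2, 39.0 and 25.7 CPM at 0 h (-7.31 ± 0.54, adjusted p = 4.11e-08; -7.95 without library 2 of 18 h). In basidiospores, 138 end genes had risen and 147 had fallen by 12 h among 408 tested, or 69.9%, close to the 67.8% of all tested genes (36.6% higher, 31.2% lower). CopciAB_465341.T0 (scaffold 4, 3672018 to 3673789) had 8.81, 11.4 and 10.0 CPM at 12 h and a single count at 0 h, in library 1, a ratio of 250.5 with a 95% counting interval of 44.7 to 9923 (135 without library 3 of 0 h). CopciAB_481704.T0 (scaffold 8, 55275 to 56291) had no count at 12 h and 27.9, 27.5 and 12.6 CPM at 0 h, at least 252-fold lower (adjusted p = 1.12e-07). Both basidiospore genes were picked for their fold change, and in each stage the gene that led in the other was at or near 0.

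During growth in the dark, 84 of 563 tested end genes had risen and 48 had fallen by 132 h, set against 12 h. This was 23.4%, against 16.9% of all tested genes (9.51% higher, 7.34% lower) and 14.6% of interior genes. CopciAB_502842.T0 (scaffold 13, 83902 to 84851) had 58.8, 54.7 and 92.6 CPM at 132 h, against 1.523, 4.70 and 4.34 CPM at 12 h (4.31 ± 0.31, adjusted p = 5.2e-13), and it overlaps a gene on the other strand. CopciAB_502195.T0 (scaffold 11, 2135648 to 2136642) had 3.20, 1.76 and 1.07 CPM at 132 h and 49.9, 100.5 and 39.1 CPM at 12 h (-4.94 ± 0.35, adjusted p = 2.53e-13). Picked in the same way, the first gene was the higher one in old colonies and the second in young ones.

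Aerial and attached mycelium differed in many end genes. In aerial mycelium 75 were higher and 96 lower of 556 tested, or 30.8%, against 18.5% of all tested genes (7.57% higher, 10.9% lower) and 15.6% of interior genes. CopciAB_546727.T0 (scaffold 5, 3420377 to 3421568), 11363 bp from the last end of scaffold 5, had 10.1, 11.8 and 11.5 CPM in aerial mycelium and 0.0910, 0.240 and 0.178 CPM in attached mycelium (5.88 ± 0.64, adjusted p = 2.02e-07). CopciAB_546855.T0 (scaffold 2, 71721 to 73330) had 0.275, 0.469 and 0.233 CPM in aerial mycelium, and its attached libraries varied widely with 107, 63.0 and 8.37 CPM (-7.51 ± 0.82, adjusted p = 9.91e-07; -6.76 without attached library 1). By this choice of extremes, each gene was close to absent from 1 of the 2 kinds of mycelium.

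Light for 2 h changed 77 end genes upward and 59 downward in aerial mycelium, 24.5% of 556, against 17.9% of all tested genes (8.39% higher, 9.55% lower) and 16.6% of interior genes. In attached mycelium 65 were higher and 84 lower after light, 26.8%, against 21.5% of all tested genes (8.07% higher, 13.4% lower) and 20.3% of interior genes. The strongest increase in both was that of CopciAB_442230.T0 (scaffold 9, 109042 to 114550), a gene of 24 exons at the first end of scaffold 9 that overlaps another counted gene on the same strand. In light it had 131, 273 and 215 CPM in aerial mycelium, against 1.10, 0.548 and 0.310 CPM in darkness (8.34 ± 0.49, adjusted p = 1.98e-10). In attached mycelium the values were 681, 444 and 512 CPM in light and 6.01, 9.03 and 8.02 CPM in darkness (6.14 ± 0.42, adjusted p = 2.8e-10). Its values were thus lower in aerial than in attached mycelium, both in light and in darkness. CopciAB_546727.T0, high in dark aerial mycelium, fell there to 0, 0.419 and 0.268 CPM in light (-5.44 ± 0.62, adjusted p = 1.69e-06; -6.13 without light library 2). CopciAB_502197.T0 (scaffold 11, 2128521 to 2132048) had 2.07, 2.48 and 2.74 CPM in attached mycelium after light and 386, 378 and 124 CPM in darkness (-6.94 ± 0.63, adjusted p = 8.35e-08). The response itself differed between the 2 kinds of mycelium, by the interaction term of the same fit, for 52 of 556 end genes (9.35%), against 6.38% of all tested genes and 5.60% of interior genes.

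In fruiting body formation, 93 end genes were higher and 76 lower in hyphal knots than in attached mycelium 24 h after light, 30.4% of 556, against 18.3% of all tested genes (8.73% higher, 9.52% lower) and 15.6% of interior genes. CopciAB_527180.T0 (scaffold 11, 68588 to 70180) had 39.3, 3.33 and 9.09 CPM in knots and no count in attached mycelium, at least 192-fold higher (adjusted p = 1.76e-05), with most of the level in library 1 and a bound of 69.4-fold without it. CopciAB_483177.T0 (scaffold 13, 70658 to 71767) had 2 counts in all in knots, both in library 3, and 31.6, 50.4 and 43.3 CPM in attached mycelium, a ratio of 743 with a counting interval of 205 to 6143 (483 without knot library 1). From knots to primordia the changes of end genes were mostly downward. Of 556 tested, 56 were higher and 179 lower in primordia at 24 h, or 42.3%, against 32.6% of all tested genes (13.1% higher, 19.6% lower) and 30.4% of interior genes. Increases made up 23.8% of the called end genes, compared with 44.1% of the called interior genes. CopciAB_440127.T0 (scaffold 5, 79551 to 81528) rose to 29.5, 40.7 and 36.9 CPM in primordia, against 0.726, 0.750 and 0.0909 CPM in knots (5.99 ± 0.80, adjusted p = 5.49e-06). CopciAB_26022.T0 (scaffold 5, 46095 to 48738) fell to 3.39, 7.51 and 5.28 CPM in primordia, against 259, 483 and 372 CPM in knots (-6.16 ± 0.46, adjusted p = 7.51e-10).

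Starvation moved end genes mostly upward. After 24 h on water agar 170 of 563 tested were higher and 61 lower, together 41.0%, against 26.4% of all tested genes (15.3% higher, 11.1% lower) and 23.6% of interior genes. Increases made up 73.6% of the called end genes and 53.5% of the called interior genes. CopciAB_483177.T0, the gene nearly absent from knots, had 18.4, 11.05 and 12.1 CPM in starved mycelium and no count in dark mycelium at 60 h, at least 167-fold higher (adjusted p = 1.92e-08). CopciAB_502195.T0 had 2 counts in starved mycelium and 19.0, 22.1 and 20.2 CPM at 60 h, a ratio of 253 with a counting interval of 69.8 to 2094. Picked as the extremes of this comparison, these genes were each held by starved mycelium or by its control, with little or nothing in the other. In the water agar series, 38 end genes rose and 46 fell in knots, set against the samples labelled minus 30 h. This was 16.2% of 519, against 10.1% of all tested genes (5.94% higher, 4.18% lower) and 8.29% of interior genes. CopciAB_139333.T0 (scaffold 12, 2104570 to 2106101), which overlaps a gene on the other strand, had 24.4, 36.9 and 34.5 CPM in knots and 2.61, 1.67 and 3.89 CPM in the earlier samples (3.58 ± 0.25, adjusted p = 3.04e-09). CopciAB_429056.T0 (scaffold 12, 15613 to 16691) had 2.02, 1.75 and 1.02 CPM in knots and 15.8, 8.995 and 12.7 CPM in the earlier samples (-2.92 ± 0.47, adjusted p = 8.21e-05).

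Sclerotia and heat shock gave large changes in both directions. In sclerotia 140 end genes were higher and 150 lower than in dark mycelium at 132 h, 51.5% of 563, against 41.5% of all tested genes (19.4% higher, 22.1% lower) and 38.3% of interior genes. CopciAB_483120.T0 (scaffold 11, 2154255 to 2155132), which overlaps a gene on the other strand, had 43.3, 40.6 and 40.04 CPM in sclerotia and no count in mycelium, at least 470.4-fold higher (adjusted p = 1.03e-13). CopciAB_405275.T0 (scaffold 8, 49868 to 50738) had 3 counts in sclerotia and 45.6, 83.0 and 31.7 CPM in mycelium, a ratio of 246 with a counting interval of 84.0 to 1193 (455 without sclerotia library 2). After 2 h at 47 °C 146 end genes were higher and 188 lower, 59.3%, near the 55.9% of all tested genes (27.9% higher, 27.9% lower). CopciAB_461172.T0, described above, had 0.246, 0.185 and 0.625 CPM in the dark mycelium beside its 198, 299 and 283 CPM in heat (9.55 ± 0.47, adjusted p = 5.11e-19; 10.21 without mycelium library 3). CopciAB_547282.T0 (scaffold 9, 49030 to 50084) had no count in heat and 24.5, 5.00 and 49.1 CPM in mycelium, at least 186-fold lower (adjusted p = 0.000424), or 105-fold without mycelium library 3, and its call was lost with only these 2 groups in the fit (adjusted p = 0.053).

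Freezing for 30 min raised 80 and lowered 52 of 563 end genes, 23.4%, against 16.9% of all tested genes (9.35% higher, 7.52% lower) and 15.2% of interior genes. CopciAB_559306.T0 (scaffold 7, 2705693 to 2706648), which overlaps a gene on the other strand, had 28.3, 20.6 and 40.2 CPM after freezing and 0.657, 1.20 and 0.804 CPM in mycelium (5.06 ± 0.53, adjusted p = 1.44e-08). CopciAB_546855.T0 had 1.21, 1.57 and 1.95 CPM after freezing and 16.8, 9.26 and 18.1 CPM in mycelium (-3.20 ± 0.62, adjusted p = 0.000208). Cold raised 106 and lowered 46, or 27.0%, against 16.0% of all tested genes (10.5% higher, 5.48% lower) and 13.9% of interior genes. The 3 cold libraries differed among themselves, and library 1 held only 1673490 counts. CopciAB_440653.T0 (scaffold 6, 2798214 to 2798826) had 12.9, 122.6 and 514 CPM in cold and 2.89, 5.30 and 3.44 CPM at 84 h (5.87 ± 0.73, adjusted p = 8.03e-07; 4.23 without cold library 3). CopciAB_502197.T0 had 105, 24.1 and 3.79 CPM in cold and 325, 175 and 287 CPM at 84 h (-2.70 ± 0.59, adjusted p = 0.000799; -4.17 without cold library 1). The call of CopciAB_502197.T0 was lost with only the 2 groups in the fit (adjusted p = 0.108). Cold libraries 1 and 3 stood at opposite ends for both genes.

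Cutting raised 127 and lowered 74 of 563 end genes, 35.7%, against 27.5% of all tested genes (12.4% higher, 15.1% lower) and 26.3% of interior genes. Increases were 63.2% of the called end genes and 41.7% of the called interior genes. CopciAB_442230.T0, which was also higher after light, had 239, 248 and 242 CPM after cutting. At 84 h it had 8.15, 9.43 and 9.90 CPM (4.71 ± 0.24, adjusted p = 9.29e-18). CopciAB_559348.T0, the most abundant end gene, fell to 30.1, 14.1 and 18.0 CPM, against 319, 194 and 317 CPM at 84 h (-3.75 ± 0.70, adjusted p = 7.24e-05). Contact with Trichoderma raised 110 and lowered 27 end genes, or 24.3%, against 14% of all tested genes (9.06% higher, 4.95% lower) and 12.1% of interior genes. Increases were 80.3% of the called end genes and 57.6% of the called interior genes. The leading gene was again CopciAB_442230.T0, with 256, 403 and 294 CPM in contact and 10.4, 5.48 and 8.98 CPM at 60 h (5.26 ± 0.24, adjusted p = 4.55e-19). CopciAB_1000856.T0 (scaffold 4, 32933 to 34667) had 1.59, 0.431 and 2.18 CPM in contact and 14.5, 20.7 and 8.04 CPM at 60 h (-3.39 ± 0.54, adjusted p = 1.4e-05).

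**Figure D4:**
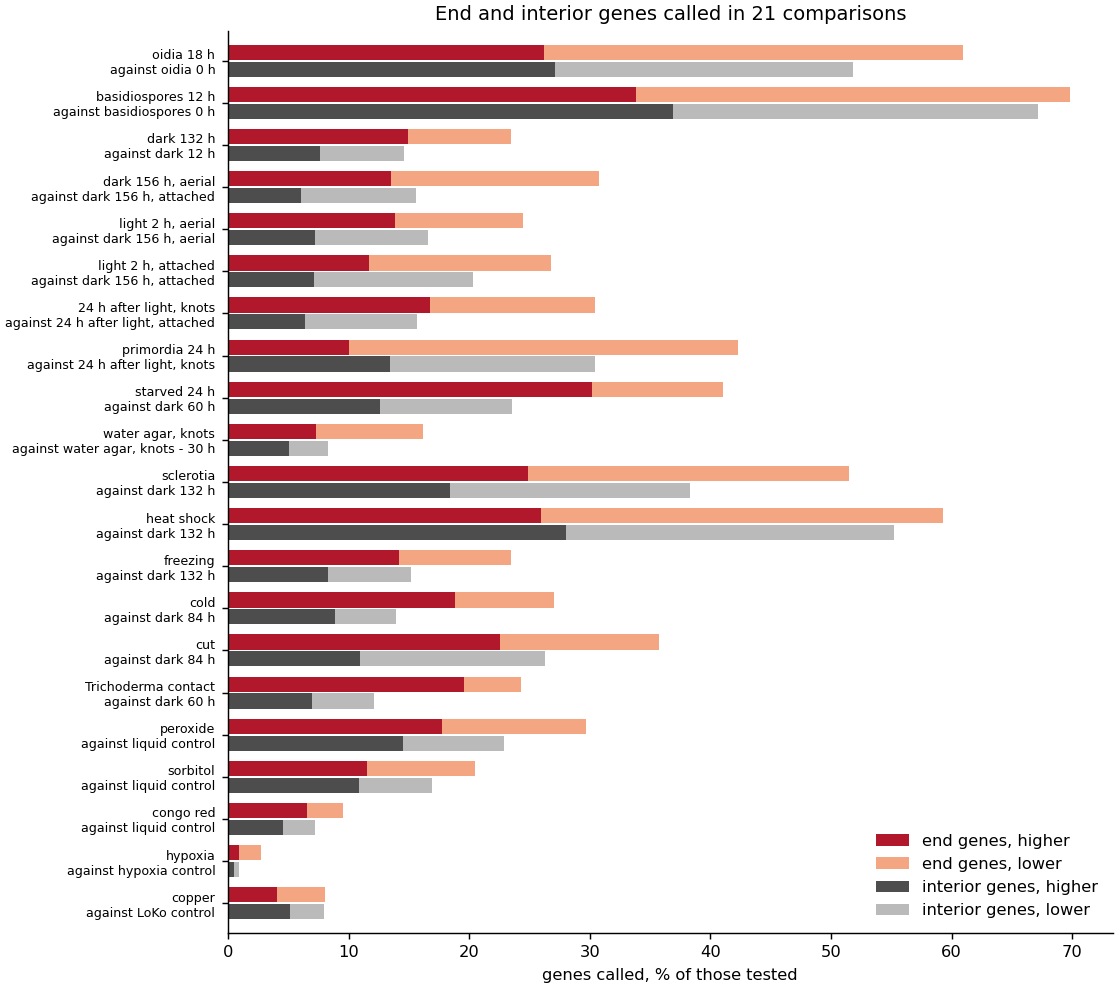
Share of the tested end genes (red and orange) and tested interior genes (dark and light grey) called in each of 21 comparisons, split into higher and lower in the group named first; the horizontal axis is percent of tested genes. The end gene bar is the longer one in every comparison, with 41.0% against 23.6% after 24 h of starvation and 8.09% against 7.96% under copper.

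In liquid culture, peroxide raised 89 and lowered 60 of 502 end genes, 29.7%, against 24.4% of all tested genes (15.5% higher, 8.95% lower) and 22.9% of interior genes. CopciAB_408843.T0 (scaffold 11, 2161259 to 2161975) had 9.34, 20.4 and 46.4 CPM in peroxide and 2 counts in the control, both in library 1, a ratio of 307 with a counting interval of 84.8 to 2538 (192 without peroxide library 3, 186 without control library 3). CopciAB_376238.T0 (scaffold 8, 34434 to 35924) had 1.99, 0.741 and 0 CPM in peroxide and 16.6, 10.9 and 6.88 CPM in the control (-3.49 ± 0.57, adjusted p = 0.000105; -4.80 without peroxide library 1). The gene picked for the highest fold change in peroxide was nearly absent from the control. Sorbitol raised 58 and lowered 45, 20.5%, against 17.8% of all tested genes (10.7% higher, 7.07% lower) and 16.9% of interior genes. CopciAB_559306.T0, the gene raised by freezing, reached 700.1, 898 and 1510.2 CPM in sorbitol, against 23.8, 39.1 and 32.5 CPM in the control (5.07 ± 0.32, adjusted p = 2.96e-09). CopciAB_559287.T0 (scaffold 11, 2133013 to 2134697) had 7.51, 10.5 and 3.07 CPM in sorbitol and 55.3, 80.8 and 25.1 CPM in the control (-2.90 ± 0.40, adjusted p = 2.55e-05). The first gene stood above 20 CPM even without sorbitol. Congo red changed 33 end genes upward and 15 downward, 9.56%, near the 8.32% of all tested genes (5.26% higher, 3.06% lower). CopciAB_226149.T0 (scaffold 11, 2177765 to 2179020) had 40.1, 35.9 and 67.3 CPM with the dye and 0.570, 1.36 and 0.754 CPM in the control (5.82 ± 0.53, adjusted p = 6.47e-07). CopciAB_225329.T0 (scaffold 10, 2245551 to 2246482) had 16.6, 12.4 and 11.1 CPM with the dye and 57.2, 74.2 and 87.7 CPM in the control (-2.44 ± 0.26, adjusted p = 4.25e-06).

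Hypoxia and copper gave few calls. In hypoxia 4 of 434 end genes were higher and 8 lower, 2.76%, against 1.12% of all tested genes (0.585% higher, 0.536% lower) and 0.876% of interior genes, and the share rested on single libraries. Without hypoxia library 1, 2 or 3 it was 1.74%, 1.53% and 1.09%, and without control library 2 or 3 it was 0.220% and 0.670%. CopciAB_376238.T0 had 22.1, 6.59 and 5.19 CPM in hypoxia and 1.87, 1.02 and 1.19 CPM in the control (3.03 ± 0.61, adjusted p = 0.0458). Its call was lost without hypoxia library 1, with 2.09 and an adjusted p of 0.0699, and also without any 1 of the 3 control libraries. CopciAB_399446.T0 (scaffold 2, 3934023 to 3935187) had 1.58, 6.30 and 6.04 CPM in hypoxia and 48.8, 41.8 and 25.8 CPM in the control (-3.07 ± 0.46, adjusted p = 0.0155; 0.072 without control library 2, 0.051 with a replicate block). Copper changed 19 end genes in each direction, 8.09%, at the level of the 8.26% of all tested genes (5.04% higher, 3.22% lower), and without copper library 1 the share was 4.85%. CopciAB_1000559.T0, with its single high library, had 0.139, 0.226 and 0.421 CPM in the control (11.52 ± 1.77, adjusted p = 0.0012; 7.36 without copper library 1). CopciAB_469186.T0 (scaffold 13, 970251 to 972530) had 1.02, 2.05 and 1.90 CPM in copper and 7.81, 10.3 and 29.1 CPM in the control (-3.20 ± 0.60, adjusted p = 0.00436). For this gene the value was -2.42 without control library 3, and the adjusted p was 0.0594 with only the 2 groups in the fit.

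In all 21 comparisons the share of tested end genes called was above that of tested interior genes, by a ratio between 1.02 and 3.16 with a median of 1.39. Taken as a share of all counted genes, tested or not, end genes were above interior genes in 14 of 21. Because end genes were lower, the shares were also taken within bands of mean level. The bands hold only genes that passed the filter on low counts. A gene can pass it through a single group in which it is high, and the bands do not remove this choice. End genes were above interior genes in 14 of 21 comparisons below 1 CPM, where as few as 1 end gene was tested, in 20 from 1 to 10 CPM, in 21 from 10 to 100 CPM and in 19 at 100 CPM or more. Among genes tested in every comparison, the median number of calls was 6 of 21 for 297 end genes and 4 for 6869 interior genes, and 10 or more calls were made for 16.5% and 6.93% of them. CopciAB_448166.T0 (scaffold 11, 2179302 to 2180560) was called most often, in 18 comparisons, 10 of them higher. It averaged 463 CPM in the 60 h Trichoderma co-culture, 116 CPM in attached mycelium 24 h after light and 0.110 CPM in basidiospores at 12 h. CopciAB_559348.T0 and CopciAB_373545.T0 (scaffold 8, 89012 to 90155) were called in 16, and CopciAB_544915.T0 (scaffold 6, 2788012 to 2789105), with 5013, 3229 and 5234 CPM in sorbitol, and CopciAB_525788.T0 (scaffold 3, 49960 to 52526) in 14 each.

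Neighbouring end genes varied together somewhat more than neighbouring interior genes. Not every adjacent pair was used, and more were left out at ends, with 413 pairs beside 796 end genes and 7402 beside 9117 interior genes. Over the 67 group means of log2 CPM, the correlation between adjacent genes had a median of 0.170 for the end pairs and 0.113 for the interior pairs. The points of each pair share their libraries, depth and scaling, and this correlation describes only the pairs used. It was 0.7 or more in 8.96% of end pairs and 3.39% of interior pairs. With pairs that share reads or overlap left out, the shares were 9.73% of 329 end pairs and 3.62% of 5495 interior pairs, while the medians were closer, at 0.153 and 0.128. Divergent pairs, whose starts face each other, reached it in 15.2% of 99 cases at ends and 4.10% in the interior. The pair with the highest value, 0.967, was CopciAB_432038.T0 and CopciAB_454731.T0 on scaffold 6, divergent and 192 bp apart. CopciAB_442228.T0 and CopciAB_432086.T0 on scaffold 9, on the same strand, followed with 0.953.

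Runs of 4 or more consecutive tested end genes called in the same direction occurred 60 times, in 14 of the 21 comparisons and at 19 of the 26 ends. Of these, 33 lay in the 4 comparisons in which over 50% of tested end genes were called. By the same rule, runs held 2.51% of tested end genes and 1.44% of tested interior genes, summed over the 21 comparisons, and the share at ends was the higher one in 13 of them. In basidiospores at 12 h, where most genes were called, it was 10.3% at ends and 10.97% in the interior, and in aerial against attached mycelium it was 6.12% and 0.258%. The longest held 8 genes and was lower in oidia at 18 h than at 0 h. It covered positions 2322682 to 2366683 of scaffold 8, from 57995 to 99099 bp off the last end. CopciAB_407805.T0 (scaffold 8, 2326216 to 2329044) in it had 82.5, 83.1 and 84.4 CPM in oidia at 0 h and averaged 8.71 CPM at 18 h, and CopciAB_547387.T0 (scaffold 8, 2356894 to 2359633) averaged 5.52 CPM at 0 h but was highest in heat shock, with 19.6, 27.4 and 19.3 CPM. The other 6 genes were CopciAB_482713.T0, CopciAB_502185.T0, CopciAB_433823.T0, CopciAB_337354.T0, CopciAB_1001863.T0 and CopciAB_382169.T0, and CopciAB_337354.T0, CopciAB_1001863.T0 and CopciAB_382169.T0 share reads with other loci. Heat-shocked mycelium was higher than dark mycelium in a run of 5 genes of the same stretch.

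The 3 stretches with runs in the most comparisons were chosen after their values were seen, and several of those comparisons share the dark mycelium at 132 h. The first lies on scaffold 8, positions 41075 to 56291, 33480 to 47680 bp from the first end, and holds 8 genes. In dark mycelium at 132 h 6 of 7 tested genes were higher than at 12 h, in sclerotia 6 of 7 were lower than at 132 h, after heat shock 6 of 7 were lower, and in cold 5 of 7 were higher than at 84 h. Leaving out any single library of these groups left at least 5 called in each of the 4 comparisons. CopciAB_405272.T0 (scaffold 8, 51143 to 52029) had 93.7, 74.4 and 67.1 CPM at 132 h and 8.00, 14.1 and 7.65 CPM at 12 h (3.00 ± 0.51, adjusted p = 4.35e-05). In sclerotia it had 1.87, 0 and 0.790 CPM (-6.46 ± 0.76, adjusted p = 3.39e-08; -7.81 without sclerotia library 1), and in cold 61.2, 286 and 301 CPM, against 29.2, 49.7 and 34.2 CPM at 84 h (2.58 ± 0.49, adjusted p = 0.000205). It was also low in aerial mycelium, with 0.0916, 1.80 and 0.388 CPM, against 48.4, 44.9 and 102 CPM in attached mycelium (-6.40 ± 0.68, adjusted p = 5.49e-07; -7.99 without aerial library 2). Its neighbour CopciAB_405275.T0 had 56.1, 163 and 258 CPM in cold and 40.2, 27.6 and 46.2 CPM at 84 h (2.13 ± 0.40, adjusted p = 0.000136). CopciAB_501026.T0 (scaffold 8, 53596 to 54541) had 3.42, 7.16 and 4.57 CPM after heat shock and 55.7, 64.3 and 45.1 CPM at 132 h (-3.40 ± 0.25, adjusted p = 3.9e-15). CopciAB_454129.T0 (scaffold 8, 46287 to 47336) had 2.10, 2.22 and 1.40 CPM after heat shock and 30.2, 39.8 and 29.2 CPM at 132 h (-4.06 ± 0.32, adjusted p = 4.4e-14). CopciAB_501026.T0 and CopciAB_454129.T0 were thus low in heat-shocked mycelium, while the genes named for cold were high in cold. CopciAB_405272.T0 was also lower after heat shock than at 132 h. Its mean log2 CPM there was 4.38, above the 3.28 at 12 h. Of the outer 2 genes, CopciAB_93259.T0 (scaffold 8, 41075 to 42282) averaged 30.5 CPM and was called in 1 comparison, as 1 of the 6 lower after heat shock, and CopciAB_501031.T0 (scaffold 8, 44244 to 46066) reached 1 CPM in no group. Over all groups the correlations among the 8 genes ran from -0.20 to 0.88 with a median of 0.43.

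A second stretch on the same scaffold end, positions 84928 to 96113, held 6 genes. All 5 tested genes were lower after heat shock than at 132 h. In sclerotia 4 of 5 were lower, in primordia 4 of 5 were lower than in knots, and in aerial mycelium 4 of 5 were lower than in attached mycelium. In dark mycelium at 132 h 4 of 5 were higher than at 12 h. With a library left out, as few as 3 were called in primordia and as few as 3 at 132 h against 12 h. Over all groups the correlations among the 6 genes ran from -0.09 to 0.91 with a median of 0.22. CopciAB_428954.T0 (scaffold 8, 86719 to 87841) had 7.49, 3.74 and 3.16 CPM in sclerotia and 233, 576 and 254 CPM in mycelium (-6.16 ± 0.34, adjusted p = 2.59e-17). CopciAB_499986.T0 (scaffold 8, 94412 to 96113) went the other way in sclerotia, with 37.2, 44.7 and 31.3 CPM against 8.70, 10.3 and 10.5 CPM (1.97 ± 0.31, adjusted p = 9.37e-07), and in aerial mycelium, with 105, 79.8 and 65.4 CPM against 21.7, 20.4 and 19.2 CPM (1.98 ± 0.35, adjusted p = 0.000126). The third stretch lies on scaffold 4, positions 3633164 to 3651373, 59296 to 76728 bp from the last end. All 7 tested of its 9 genes were lower after heat shock, 5 of 7 were lower in sclerotia and 5 of 8 were lower in primordia than in knots. After freezing 4 of 7 were lower than at 132 h. In aerial mycelium 4 of 8 were higher than in attached mycelium and 1 was lower. With a library left out, as few as 4 were called in primordia and as few as 3 after freezing. Over all groups the correlations among its 9 genes ran from -0.22 to 0.93 with a median of 0.45. CopciAB_377624.T0 (scaffold 4, 3644690 to 3646726) had 175, 194 and 248 CPM in aerial mycelium and 18.7, 18.2 and 22.9 CPM in attached mycelium (3.32 ± 0.38, adjusted p = 7.45e-07). After heat shock it had 2.24, 5.46 and 4.45 CPM, against 59.6, 98.0 and 50.4 CPM at 132 h (-4.05 ± 0.43, adjusted p = 1.36e-09). Of its 9 genes 7 overlap another counted gene, 2 of them on the same strand, and the strand setting of the counting was not given in the sources used here.

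**Figure D5:**
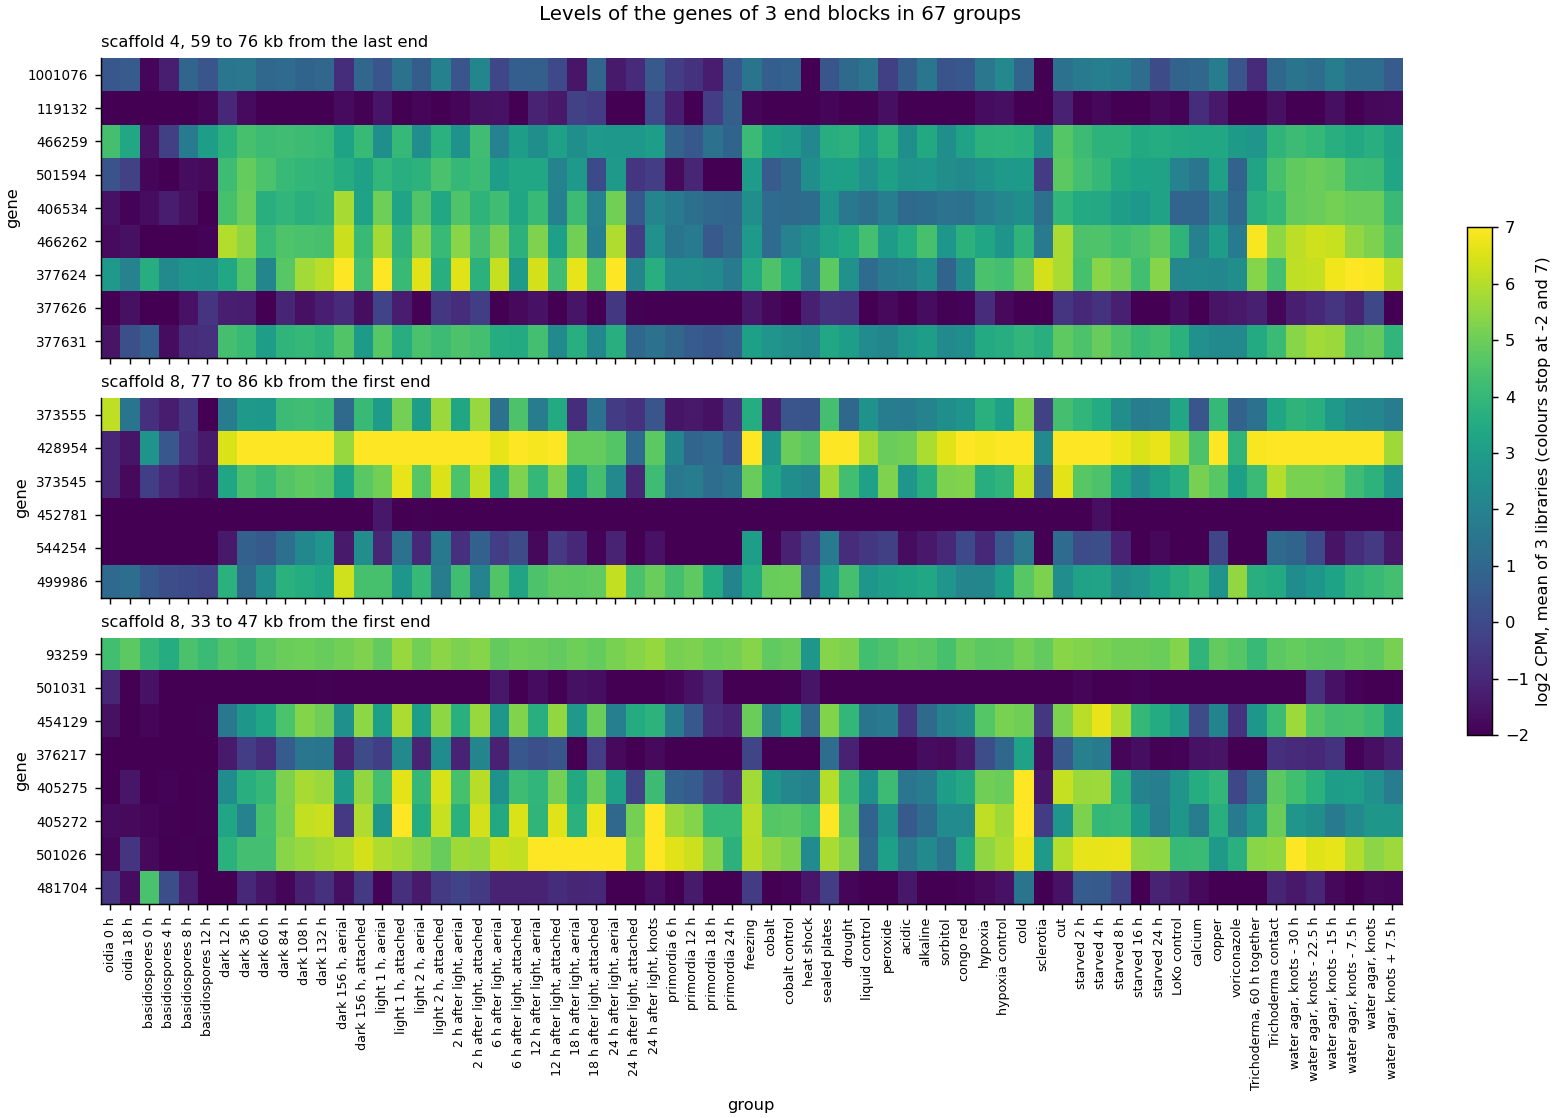
Mean log2 CPM of 3 libraries for each gene (rows, in order along the scaffold, labelled by the number in the gene ID) of the 3 stretches with runs in the most comparisons, in the 67 groups (columns). Most genes of the scaffold 8 stretches are dark in spores and in sclerotia, and several are bright in cold, while CopciAB_93259.T0, with a mean of 30.5 CPM, is much the same in most groups and lower after heat shock.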

How the data were processed

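Expected counts for each gene in all libraries were deposited by the authors as 1 table. Of its nonzero values 19.9% are not whole numbers (tolerance 0), read here as reads divided among loci. Reads divided between overlapping genes were not told apart from these. Per the submitters' processing notes the tools were STAR 2.6.1a and featureCounts, and the version of the second, its strand setting and the assembly's name were not given in those notes or labels. Positions come from the deposited CopciAB V2 annotation, 1-based: 14750 models, of which 1133 isoforms were not counted. Counts were rounded to whole numbers. CPM used TMM factors over all libraries, and log2 CPM a prior count of 2.

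Comparisons were made with edgeR 4.0.16 in R 4.3.3: quasi-likelihood test with robust fit, TMM, filterByExpr at a minimum count of 10, Benjamini-Hochberg adjustment over all genes tested. Related groups shared a fit and so an estimate of the spread. SE was the absolute log2 fold change divided by the square root of F. Descriptions used Python 3.11.15, and the fitting was tested on simulated data. Medians, shares and correlations over genes carry no p, since genes are not replicates.

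Named in the text are, per comparison, the called end gene of highest and lowest fold change with at least 10 CPM in the higher group and no overlap between libraries; the 5 end genes of highest mean; the 5 of highest tau among those that reached 50 CPM in a group; the 5 called most often; the outermost gene of each end; and the genes of the longest run. Genes of the 3 stretches were chosen after their values were seen. The rule for the members uses position alone, but the rule, the comparisons and the lists were chosen with earlier results of these data known. The labels do not say whether equal replicate numbers mark paired samples. The deviations of same-numbered libraries all correlated above 0.1 in 1 of 21 comparisons, aerial against attached mycelium in darkness. The values there were 0.14, 0.31 and 0.32 over 8589 genes, and the main test had no replicate block. Alternatives covered DESeq2 1.42.0, RLE scaling, no filter on low counts, other distances, omission of genes with shared reads, overlaps or no annotated 3′ end, a replicate block, only the groups compared, and each library left out.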

Additional observations from a re-analysis of the deposited data

Results flagged for a closer look

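The response of CopciAB_442230.T0 to 2 h of light differed between the 2 kinds of mycelium. In aerial mycelium its log2 fold change over darkness was 8.34 ± 0.49 and in attached mycelium 6.14 ± 0.42 (SE, n = 3 libraries per group). The difference, aerial minus attached, was 2.20 ± 0.57 on the log2 scale with an adjusted p of 0.0194 by the interaction term of edgeR's quasi-likelihood fit. Leaving out single libraries gave 1.86 to 2.75, and the adjusted p was 0.0737 without library 2 of dark aerial mycelium, 0.072 without library 3 of it and 0.0516 without library 2 of dark attached mycelium. The dark aerial libraries held 1.10, 0.548 and 0.310 CPM, so that the larger fold rests on low values in darkness. The gene overlaps another counted gene on the same strand, and the part of that overlap was not tested. Of the other end genes named for light, CopciAB_546727.T0 differed by -3.85 (adjusted p = 0.405) and CopciAB_502197.T0 by 2.15 (adjusted p = 0.116), which did not pass.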

How the results depend on the processing

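The lower level of end genes kept its sign under every alternative run. The log2 difference between medians was -3.09 with CPM by total counts, -3.40 within 50 kb, -3.00 within 200 kb, -2.46 without genes that share reads, -3.14 without overlapping genes, -2.34 for genes with an annotated 3′ untranslated region, -3.39 and -2.79 with prior counts of 0.5 and 5, and -3.09 without the 60 h Trichoderma co-culture. The share of end genes that never reached 1 CPM was 19.7% within 50 kb, 6.72% without shared reads, 5.58% with an annotated 3′ untranslated region, 11.7% and 30.2% at thresholds of 0.5 and 5 CPM, and 20.6% both without the 60 h Trichoderma co-culture and without all libraries under 2000000 counts. The difference in the median number of groups at 1 CPM, end minus interior, was -22 with CPM by total counts and without replicate 1, 2 or 3, -30 within 50 kb, -19 within 200 kb, -10.5 without shared reads, -21 without overlaps, -8 with an annotated 3′ untranslated region, and -9 and -56 at 0.5 and 5 CPM. The difference in median tau was 0.18 by total counts, 0.20 within 50 kb, 0.18 with an annotated 3′ untranslated region, 0.24 and 0.16 at minimum levels of 1 and 10 CPM, and 0.17 both without the 60 h Trichoderma co-culture and without those under 2000000 counts. The share of tested end genes called was above that of interior genes in 21 of 21 comparisons with DESeq2, RLE scaling, the replicate block, 50 and 200 kb, no shared reads and only the groups compared, in 16 of 21 without the filter, where many more low genes are tested, and in 121 of 126 fits with a library left out. In hypoxia the called share was 5.99% with DESeq2 and 0.220% to 2.87% with a library left out. Under copper it was 14.6% with DESeq2, 13.6% within 50 kb, 5.28% without the filter, 2.02% with only the 2 groups in the fit, and 4.85% to 10.8% with a library left out. The cause of these shifts was not tested. The replicate block moved no count of calls by over 1.5 times; in hypoxia the called share was 2.30% with the block and 2.76% without it, and CopciAB_399446.T0 alone among the named genes lost its call. Of the 42 named values, 40 were called in every fit with a library left out, and 16 moved by over 1.5-fold in at least 1 of them. With DESeq2, 41 of the 42 kept their call, and no result was recorded for the remaining value. Depth limits the values of the 60 h Trichoderma co-culture, in which a single count equals 1.86 to 4.35 CPM.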

Other observations

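The groups in which end genes had their highest level were unlike those of interior genes in several cases, as a description with no test. The 60 h co-culture with Trichoderma was the highest group for 91 end genes (11.4%) and 5.14% of interior genes, oidia at 0 h for 73 (9.17%) and 11.6%, basidiospores at 0 h for 60 (7.54%) and 15.6%, and heat shock for 46 (5.78%) and 10.2%. Sclerotia were the highest group for 34 end genes (4.27%) and 2.88% of interior genes. Genes with no rounded count in any library were placed in oidia at 0 h, so the shares of that group include genes without a peak. Among these were CopciAB_1001251.T0 and CopciAB_1001667.T0. All these shares are of all end or interior genes, including the 15.7% and 4.63% that never reached 1 CPM. CopciAB_375418.T0, the outermost gene at the last end of scaffold 6, is 1 of those that peaked in oidia at 0 h, with 55.5, 76.0 and 77.3 CPM, and basidiospores at 0 h came next with 22.9 CPM on average. The values of that co-culture rest on the 3 libraries of lowest depth, and the part of depth in its 91 peaks was not tested.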
